A study of Mus musculus with 10 samples.

Results

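The genes described here encode the proteasome, the protease complex that degrades ubiquitin-tagged proteins in the cytosol and nucleus. They were all genes on the array whose symbol begins with Psma, Psmb, Psmc, Psmd or Psme and a number, 43 of 12393 genes with a single symbol, each read on its brightest probe set. Of these, 41 are parts, activators or chaperones of the complex, and the remaining 2, Psmc3ip and Psme3ip1, are named for binding a proteasome protein and are not part of it. One further probe set was annotated to several genes and was left out. Expression was measured on 10 Affymetrix arrays of mouse tissue dissected at stage E10.5 so as to hold the hindbrain and pharyngeal arches 1 to 4, the paired tissue bulges of the embryonic throat. In 5 arrays the embryos were Fbln1-null, homozygous for a gene trap insertion in Fbln1, which encodes the matrix glycoprotein fibulin-1, and in 5 they were wildtype. Both genotypes came from matings of mice heterozygous for the insertion. The series set out to ask how fibulin-1 affects FGF8 signalling, and the proteasome genes are read here across the same comparison of genotypes.

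The proteasome has a barrel-shaped 20S core and a 19S cap. The core is a stack of rings, outer ones of alpha subunits that gate the entry and inner ones of beta subunits, among which Psmb5, Psmb6 and Psmb7 carry the proteolytic sites. The cap has a base of ATPases and scaffold subunits, which unfolds substrates, and a lid, which removes their ubiquitin chains. In immune cells and under interferon, Psmb8, Psmb9 and Psmb10 take the place of the constitutive catalytic subunits. When proteasome activity falls short, the transcription factor encoded by Nfe2l1 is known to raise the transcription of many subunits together.

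Signal values were log2 GCRMA values of 1 probe set each, so levels are compared between arrays and not between genes. Fbln1 itself read 2.52, 2.60, 2.62, 2.72 and 2.85 in the null arrays, against 4.93, 5.11, 3.83, 4.47 and 4.40 in the wildtype arrays, in order of replicate number, so the labels were borne out in every array. Array medians lay between 3.20 and 3.29 and correlations between arrays across probe sets between 0.985 and 0.996. Of the tissue markers, 5 of 8 for hindbrain and neural tube and 5 of 9 for arch mesenchyme and neural crest were over the expression filter, a log2 value above 4 on at least 5 arrays. Egr2, Hoxb1 and Hoxb2 of the first list and Alx4, Dlx5, Msx1 and Sox10 of the second were under it. The mean log2 level of the 8 hindbrain markers was 4.46 to 4.82 in null and 4.64 to 4.97 in wildtype arrays, with means of 4.65 and 4.82. Of the 5 over the filter 4 had a lower mean in null tissue, against 56.9% of all genes, and Hoxb3 had a higher mean (log2 fold change 0.22). Pax6, a transcription factor of the neural tube, had the lowest p of these (log2 fold change -0.52, limma adjusted p = 0.222). The 9 arch markers averaged 5.26 to 5.79 in null and 5.29 to 5.82 in wildtype arrays, with means of 5.55 and 5.47. Of the 5 arch markers over the filter 3 had a lower mean in null tissue. The genotypes overlapped in both list means. Whether the marker levels bear on the proteasome values was not tested. The mean log2 level of 5 erythroid markers was 6.07 to 6.53 in null and 5.60 to 6.47 in wildtype arrays, that of 5 heart markers 3.51 to 3.94 and 3.47 to 3.95, and that of 4 endothelial markers 4.47 to 4.56 and 4.40 to 4.66. Wildtype replicate 4 was the 1 array with Xist signal, 9.68 against 2.26 to 3.36 in the others. The labels do not name litters, so the p-values here cover the spread among these arrays. In whole tissue, fewer cells of a type and less RNA per cell cannot be told apart.

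No proteasome gene passed the test between genotypes, and the genes closest to it were lower in Fbln1-null tissue. Of the 43 genes, 38 were over the filter and were tested, and 5 (Psma8, Psmb8, Psmb9, Psmd3 and Psmd9) were not. By limma with Benjamini-Hochberg adjustment over 9801 probe sets, 0 of 38 had an adjusted p under 0.05, where 0.0338% of 5912 genes tested did, and the smallest adjusted p was 0.116. At an unadjusted p under 0.05, 8 of the 38 (21.1%) had a lower mean in null tissue, against a background of 9.00% of all genes, and 0 had a higher mean, against 3.84%. These 8 were Psmd2, Psmd1, Psmb7, Psme3, Psmc3ip, Psmb5, Psmc2 and Psma7. A lower mean in null tissue was found in 28 of the 38 (73.7%), against 56.9% of all genes. Psmc3ip and Psme3ip1 are among the 28. The count of lower means was 25 with quantile normalization, 23 with each array centred on its median and 24 with an actin control signal as a covariate. Without wildtype replicate 5 it was 23. The share of all genes with a lower mean was not counted in those fits. The median log2 fold change, as Fbln1-null minus wildtype, was -0.06 over all 43 genes and -0.08 over the 38 over the filter, beside -0.04 over all genes over the filter. Centring each array on its median shifts the fold changes of all genes by the same amount. The value over the 43 genes was then -0.01, and the median over all probe sets over the filter went from -0.04 to 0.01. The low p-values sat in a few subunits of different roles, in the activator Psme3 and in Psmc3ip, which is not a proteasome part.

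The count of 8 depended on the scaling and on single arrays. Among all probe sets with an unadjusted p under 0.05, 69.1% were lower in null tissue, and this share was 53.3% after quantile normalization and 50.9% with each array centred on its median. With quantile normalization 6 of the 38 were lower, against a background of 6.68% of all genes. With centred arrays 5 were lower, against 6.16%. Without Fbln1-null replicate 3 the count was 4 of 38 (10.53%), against 8.39% of all genes in the same fit, and without Fbln1-null replicate 4 it was 5 (13.16%), against 8.41%. Without wildtype replicate 4 it was 5, against 7.75%, and without wildtype replicate 5 it was 4, against 7.63%. In percentage points, each of these shares was nearer to its background than the 21.1% with all arrays, and each stayed above it. With both rescalings the background fell too, from 9.00%. Other arrays lowered the count less or not at all. It was 8 without Fbln1-null replicate 5 or 8, 6 without Fbln1-null replicate 7 and 9 without wildtype replicate 1. The probe sets over the filter lower at that p were 697, 801, 711 and 804 of 9801 in these fits, in that order. With all arrays they were 839.

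**Figure D1:**
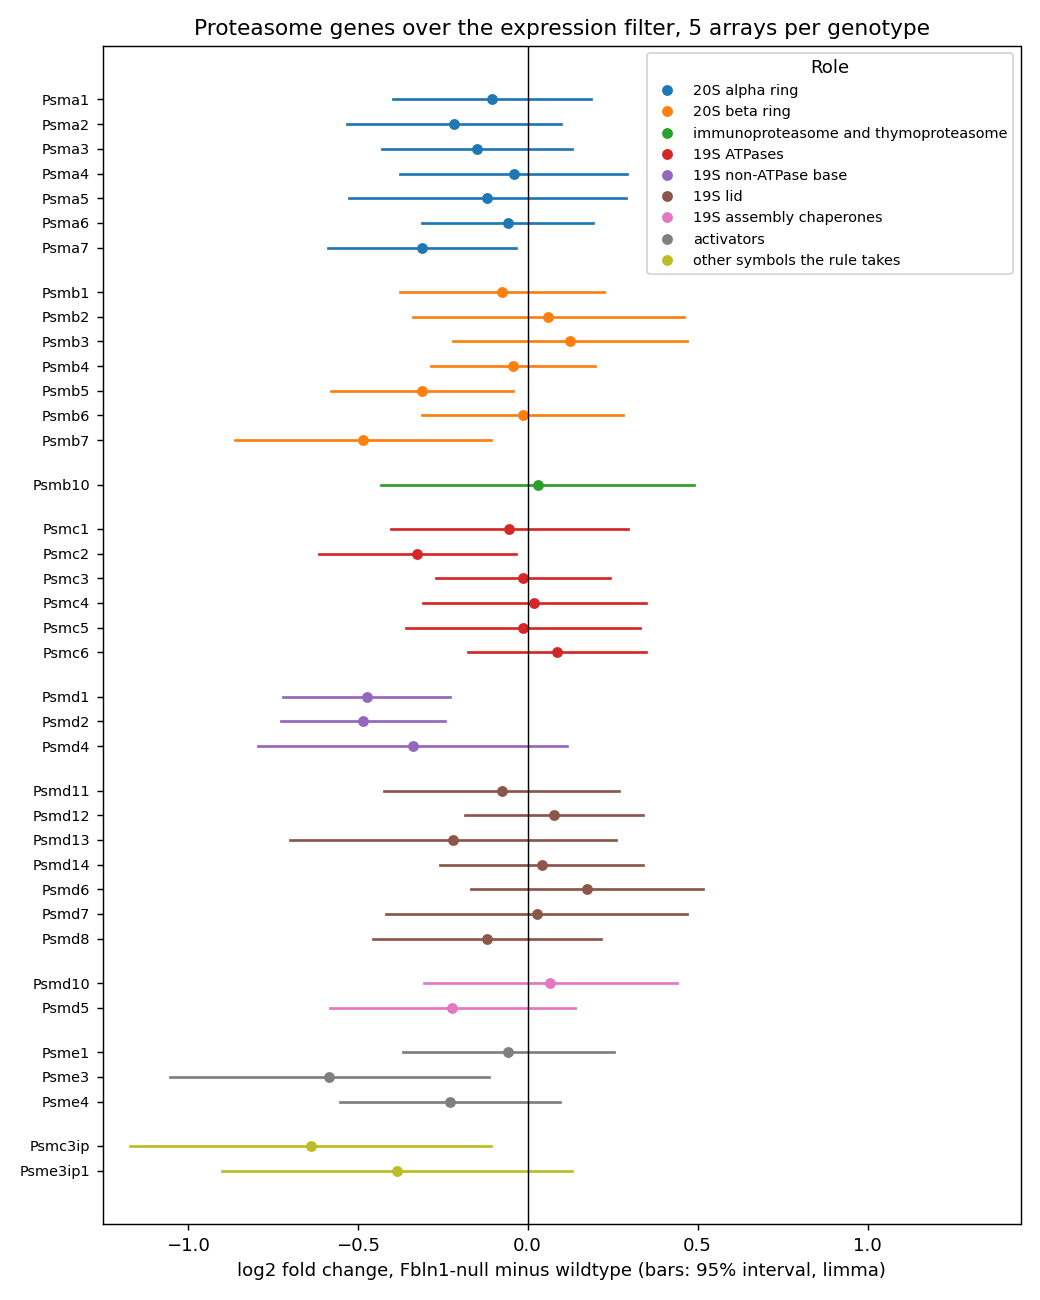
Log2 fold change (horizontal axis, Fbln1-null minus wildtype) of the 38 proteasome genes over the filter, one row per gene in order of role, with 95% intervals from limma. Values run from -0.64 for Psmc3ip to 0.17 for Psmd6, and Psmd1 and Psmd2 stand at -0.47 and -0.48.

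The 2 genes with the smallest p were Psmd2 and Psmd1, which encode the large scaffold subunits of the 19S base. Psmd2 read 9.33, 9.35, 9.32, 9.19 and 9.32 in Fbln1-null replicates 3, 4, 5, 7 and 8, against 9.73, 9.99, 9.64, 9.89 and 9.70 in wildtype replicates 1 to 5. All null arrays lay below all wildtype arrays. The means were 9.30 ± 0.06 in null and 9.79 ± 0.15 in wildtype tissue (SD, n = 5 each), and the log2 fold change was -0.48 (SE 0.11, 95% interval -0.73 to -0.24) or 1.40-fold lower, with a limma adjusted p of 0.116. Psmd1 read 9.70, 9.67, 9.60, 9.87 and 9.84 in the null arrays, against 10.14, 10.39, 10.05, 10.26 and 10.20 in the wildtype arrays. Here too the genotypes did not overlap. The means were 9.74 ± 0.11 and 10.21 ± 0.13 (SD, n = 5 each), and the log2 fold change was -0.47 (SE 0.11, 95% interval -0.72 to -0.23, limma adjusted p = 0.125). These were the 2 of 38 tested genes (5.26%) with all null arrays below the wildtype range, against 2.03% of all genes, and 0 had all null arrays above it, against 0.846%. Both were among the genes with the least spread between arrays of a genotype, with pooled SDs of 0.11 for Psmd2 and 0.12 for Psmd1, against 0.44 for Psmc3ip, the widest. Each gene had a single probe set, so no second reading was available.

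The RefSeq windows around the start sites of both genes, from 250 bases before to 50 after on GRCm38.p6, are shown because these were the genes whose genotypes did not overlap, and that of Psmb5 because, of the 8 genes with an unadjusted p under 0.05, it was the 1 with a match to the antioxidant response element core, the kind of site that the Nfe2l1 and Nfe2l2 factors bind. The motifs searched on both strands were TGACNNNGC (the antioxidant response element core), CCAAT (the CCAAT box) and CTTCCGG (a core bound by ETS factors, chosen after these windows had been seen). Capitals mark the matches.
Psmd2, chr16:20651402-20651701, plus strand: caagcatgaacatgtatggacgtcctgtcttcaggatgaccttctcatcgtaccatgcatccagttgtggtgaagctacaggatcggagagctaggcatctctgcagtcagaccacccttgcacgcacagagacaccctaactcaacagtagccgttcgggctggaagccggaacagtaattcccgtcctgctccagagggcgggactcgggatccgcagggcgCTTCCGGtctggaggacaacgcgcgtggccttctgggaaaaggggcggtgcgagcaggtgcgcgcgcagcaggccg
Psmd1, chr1:86064369-86064668, plus strand: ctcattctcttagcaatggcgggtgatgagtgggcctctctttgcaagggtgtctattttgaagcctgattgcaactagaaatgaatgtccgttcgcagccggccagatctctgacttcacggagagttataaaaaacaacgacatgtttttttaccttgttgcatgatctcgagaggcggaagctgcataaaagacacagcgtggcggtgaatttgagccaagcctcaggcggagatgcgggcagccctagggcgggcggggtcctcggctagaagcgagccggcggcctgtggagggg
Psmb5, chr14:54617946-54618245, minus strand: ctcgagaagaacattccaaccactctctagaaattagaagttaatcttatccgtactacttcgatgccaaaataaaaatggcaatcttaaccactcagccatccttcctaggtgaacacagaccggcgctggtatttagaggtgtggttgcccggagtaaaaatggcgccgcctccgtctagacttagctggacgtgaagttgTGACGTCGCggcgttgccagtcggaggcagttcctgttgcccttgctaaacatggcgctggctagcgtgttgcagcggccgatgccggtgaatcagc
The Psmd2 window held CTTCCGG from base -26 to base -20 before its start, the Psmd1 window held none of these motifs, and the Psmb5 window held TGACGTCGC from base -47 to base -39. Of the 43 genes, 36 had a window, 39 windows in all, and matches of different motifs overlapped in 0 of them. Besides Psmb5, TGACNNNGC was found in the windows of Psmb6, Psmc6, Psmd12, Psmd9 and Psme4. It was present in 15.4% of the 39 windows, against 14.2% of 6249 windows of genes over the filter and 12.4% of all 32851 windows. CCAAT was present in 38.5%, against 38.2% and 37.4%. CTTCCGG was present in 38.5%, against 20.04% and 8.86%. Of the 8 genes with an unadjusted p under 0.05, 7 had a window. CTTCCGG was in 4 of these and in 10 of the other 29 genes, CCAAT in 4 and 11, and TGACNNNGC in 1 and 5. A match is a description of the letters and not a measured binding site.

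The third subunit of the base outside the ATPases, Psmd4, is a ubiquitin receptor. It read 8.28, 8.44, 8.68, 8.66 and 9.07 in the null arrays, against 8.40, 8.79, 8.84, 9.43 and 9.36 in the wildtype arrays. The ranges overlapped widely (log2 fold change -0.34, SE 0.21, limma adjusted p = 0.549), and its second probe set over the filter gave -0.27 (SE 0.18).

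Of the ATPases of the base, Psmc2 alone was under an unadjusted p of 0.05. Its brightest probe set read 9.90, 9.81, 10.03, 10.06 and 10.37 in the null arrays, against 10.14, 10.31, 10.42, 10.55 and 10.38 in the wildtype arrays. Null replicate 8 lay within the wildtype range and the other 4 below it (log2 fold change -0.32, SE 0.13, limma adjusted p = 0.347). This probe set is of a type that can match several transcripts. The other Psmc2 probe set read 9.58, 9.56, 9.69, 9.79 and 10.07 in the null arrays, against 9.99, 10.19, 10.40, 10.62 and 10.64 in the wildtype arrays. It had the larger difference, -0.63 on the log2 scale (SE 0.16, limma adjusted p = 0.142), again with null replicate 8 inside the wildtype range. The remaining ATPases Psmc1, Psmc3, Psmc4, Psmc5 and Psmc6, which form the same ring, had log2 fold changes of -0.05, -0.01, 0.02, -0.01 and 0.09, and the 95% interval of Psmc3 ran from -0.27 to 0.24. On a further Psmc4 probe set the value was 0.34 (SE 0.20). A test of Psmc2 against the other ATPases was not made.

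**Figure D2:**
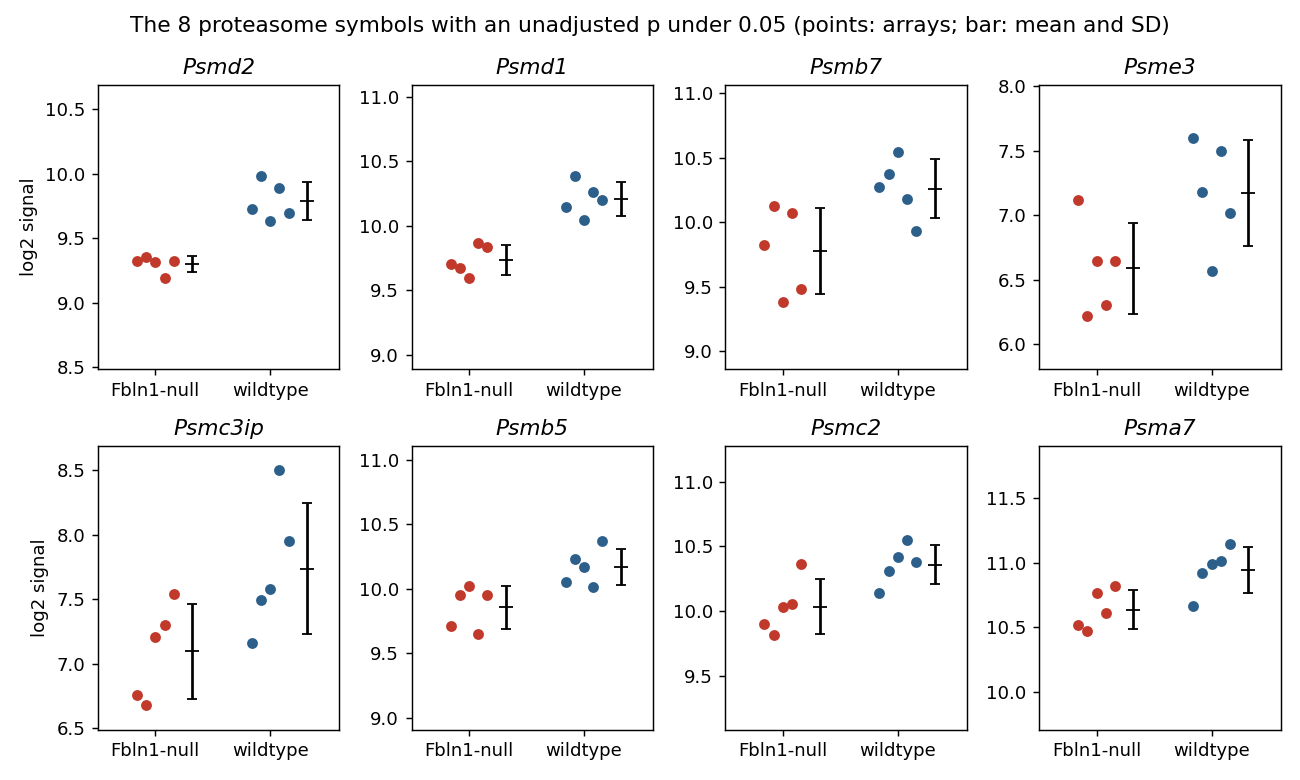
Log2 signal (vertical axis, the same span in each panel) of the 8 genes with an unadjusted limma p under 0.05, Fbln1-null on the left and wildtype on the right, one point per array with the mean and SD beside them. Psmd2 and Psmd1 show no overlap between genotypes, and the other 6 do.

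In the 20S core, 1 of 7 alpha and 2 of 7 beta subunits over the filter were lower in null tissue at an unadjusted p under 0.05. The background was 9.00% of all genes. The 2 beta subunits, Psmb7 and Psmb5, are catalytic, and the remaining catalytic subunit, Psmb6, was not under that p. Psmb7, which carries the trypsin-like site, read 9.82, 10.12, 9.38, 10.07 and 9.48 in the null arrays, against 10.27, 10.37, 10.54, 10.18 and 9.93 in the wildtype arrays. Only wildtype replicate 5 reached into the null range (log2 fold change -0.48, SE 0.17, 95% interval -0.86 to -0.11, limma adjusted p = 0.302). Psmb5, which carries the chymotrypsin-like site, read 9.71, 9.95, 10.02, 9.65 and 9.95 in the null arrays, against 10.06, 10.23, 10.17, 10.01 and 10.37 in the wildtype arrays. The ranges touched at null replicate 5 and wildtype replicate 4 (log2 fold change -0.31, SE 0.12, limma adjusted p = 0.339). Psmb6, which carries the caspase-like site, read 10.03, 9.95, 10.22, 10.14 and 10.27 in the null arrays, against 9.78, 10.14, 10.23, 10.10 and 10.44 in the wildtype arrays. Its null arrays lay inside the wildtype range, with a log2 fold change of -0.01. The 95% interval of -0.31 to 0.28 overlapped that of Psmb7. The difference between these subunits was not tested. The non-catalytic subunits of the beta ring, Psmb1, Psmb2, Psmb3 and Psmb4, had log2 fold changes of -0.08, 0.06, 0.12 and -0.04.

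All 7 alpha subunits over the filter, Psma1 to Psma7, had lower means in null tissue, against 56.9% of all genes. Their log2 fold changes were -0.31 to -0.04. Psma7 had the largest of these differences. It read 10.52, 10.47, 10.77, 10.61 and 10.82 in the null arrays, against 10.67, 10.92, 10.99, 11.02 and 11.15 in the wildtype arrays. Wildtype replicate 1 lay within the null range and the other wildtype arrays above it (log2 fold change -0.31, SE 0.13, limma adjusted p = 0.347), and its second probe set had -0.16 (SE 0.12). Psma2 read 10.08, 10.19, 10.20, 10.43 and 10.16 in the null arrays, against 9.98, 10.40, 10.53, 10.71 and 10.53 in the wildtype arrays. All its null arrays lay inside the wildtype range (log2 fold change -0.22, SE 0.15, limma adjusted p = 0.582). Psma3, Psma5, Psma1, Psma6 and Psma4 had -0.15, -0.12, -0.10, -0.06 and -0.04. The shared direction did not hold with the actin control signal, given below, as a covariate. In that fit Psma1, Psma4 and Psma5 had 0.07, 0.09 and 0.09, and Psma2, Psma3, Psma6 and Psma7 stayed negative. Psma8, a form of the alpha ring made in the testis, read 3.24 ± 0.17 in null and 3.24 ± 0.24 in wildtype tissue (SD, n = 5 each), under the filter in both.

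The interferon-inducible subunits were near or at the bottom of the scale. Psmb8 read 2.27 to 2.28 in the null arrays and 2.27 to 2.34 in the wildtype arrays, and Psmb9 read 2.27 to 2.29 and 2.27 to 2.59. Neither gave a usable fold change at the floor of the GCRMA values. Psmb10 was over the filter and read 4.23, 4.24, 5.33, 4.41 and 4.57 in the null arrays, against 4.41, 4.53, 4.29, 4.99 and 4.42 in the wildtype arrays. The genotypes overlapped (log2 fold change 0.03, 95% interval -0.43 to 0.49), and null replicate 5 was the highest array. Of 8 leukocyte markers 1 (Coro1a) was over the filter, and the mean log2 level of the list was 3.10 to 3.27 in null and 2.96 to 3.36 in wildtype arrays, with Ptprc, Cd68, Csf1r, Aif1, Tyrobp, Laptm5 and Cd52 under it. Of 6 interferon response genes B2m was over the filter and Tap1, Tap2, Irf1, Ifit1 and Ifit3 were not, with list means of 3.57 to 3.74 in null and 3.60 to 3.68 in wildtype arrays.

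The lid of the cap had genes on both sides. Of its 7 genes over the filter 3 had a lower and 4 a higher mean in null tissue, with log2 fold changes of -0.22 to 0.17 and 0 under an unadjusted p of 0.05. Psmd14, the deubiquitinating enzyme of the lid, had 0.04 (95% interval -0.26 to 0.34), Psmd12 0.08, Psmd7 0.03, Psmd6 0.17, Psmd8 -0.12, Psmd13 -0.22 and Psmd11 -0.08. Probe sets of Psmd11 differed from each other. The brightest read 8.57 ± 0.19 in null and 8.65 ± 0.30 in wildtype tissue, while the next read 6.63 ± 0.49 and 7.39 ± 0.37 (SD, n = 5 each), a difference of -0.76 on the log2 scale (SE 0.24, limma adjusted p = 0.266), and the third had -0.26 (SE 0.17). The brightest Psmd11 probe set is of a type that can match transcripts of several genes. Psmd3 was under the filter, with 3.76, 3.44, 3.83, 3.19 and 3.77 in the null arrays, against 4.87, 4.11, 3.34, 4.16 and 3.77 in the wildtype arrays, and its log2 fold change of -0.45 had a 95% interval of -1.06 to 0.16.

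Among chaperones that assemble the cap, Psmd5 showed -0.22 on the log2 scale (SE 0.17) and Psmd10, also known as gankyrin, 0.07 (SE 0.17), while Psmd9 was under the filter at 2.70 ± 0.09 in null and 2.69 ± 0.15 in wildtype tissue (SD, n = 5 each). Of the activators, which open the core without the 19S cap, Psme3, a nuclear member, read 7.12, 6.22, 6.65, 6.31 and 6.64 in the null arrays, against 7.60, 7.18, 6.57, 7.50 and 7.02 in the wildtype arrays. The ranges overlapped, with wildtype replicate 3 below 3 of the null arrays (log2 fold change -0.58, SE 0.22, limma adjusted p = 0.318), and the next probe set had -0.35 (SE 0.19). Psme4, another nuclear activator, read 9.11, 9.91, 9.63, 9.41 and 9.38 in the null arrays, against 9.77, 9.77, 9.84, 9.57 and 9.63 in the wildtype arrays. Null replicate 4 was the highest array and null replicates 3, 7 and 8 lay below the wildtype range (log2 fold change -0.23, SE 0.15, limma adjusted p = 0.573), and further probe sets of it had 0.03 and -0.07. Psme1, a subunit of the interferon-inducible activator, had -0.06 (SE 0.14).

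Psmc3ip, a cofactor of recombination in meiosis that is not a proteasome part, had the widest spread. It read 6.76, 6.68, 7.21, 7.30 and 7.54 in the null arrays, against 7.16, 7.49, 7.58, 8.50 and 7.95 in the wildtype arrays. The difference was -0.64 on the log2 scale (SE 0.24, limma adjusted p = 0.332). It drew on wildtype replicate 4 and was -0.45 without it. Psme3ip1, which binds the Psme3 protein, read 5.34, 5.76, 6.35, 6.19 and 6.45 in the null arrays, against 5.99, 6.21, 6.29, 7.04 and 6.47 in the wildtype arrays. Null replicates 3 and 4 lay below the wildtype range and wildtype replicate 4 was again the highest (log2 fold change -0.38, SE 0.24, limma adjusted p = 0.549).

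**Figure D3:**
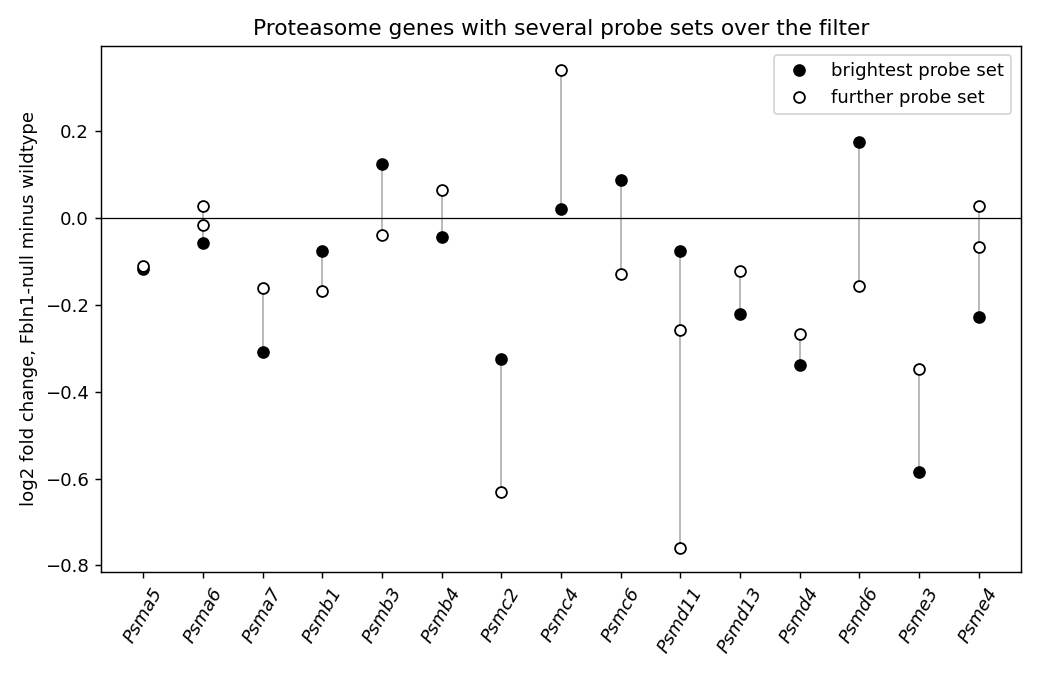
Log2 fold change (vertical axis, Fbln1-null minus wildtype) of every probe set over the filter for the 15 proteasome genes that have several, with the brightest as filled and the others as open points. Of 18 further probe sets 12 shared the sign of the brightest, and those of Psmc2 and Psmd11 spanned the negative values down to -0.63 and -0.76.

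Several probe sets per gene gave a second reading of the same arrays. Of 18 further probe sets over the filter, from 15 genes, 12 had the direction of the brightest and 6 the other, and 0 passed an adjusted p of 0.05. Those with an unadjusted p under 0.05 were 2, both lower in null tissue, on Psmc2 and Psmd11, where 8.56% of all probe sets over the filter were lower at that p. Psmb3, Psmb4, Psmc6, Psmd6, Psma6 and Psme4 were the genes with a probe set of opposite sign, all with intervals that included 0.

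The groups of subunits varied between arrays in different ways. As a mean over the 38 genes, each as a deviation from its own mean over the 10 arrays, the level was -0.21, -0.17, -0.01, -0.04 and 0.07 in null replicates 3, 4, 5, 7 and 8, against -0.16, 0.04, 0.04, 0.22 and 0.22 in wildtype replicates 1 to 5. Null replicates 3 and 4 and wildtype replicate 1 were low, wildtype replicates 4 and 5 were high, and the genotypes overlapped. For Psmd1, Psmd2 and Psmd4 together the deviation was -0.33 to -0.03 in null and -0.01 to 0.42 in wildtype arrays. For the ATPases it was -0.13 to 0.18 and -0.10 to 0.25, for the lid -0.18 to 0.15 and -0.24 to 0.32, for the alpha ring -0.23 to 0.05 and -0.26 to 0.24, for the beta ring -0.21 to 0.03 and -0.17 to 0.23, and for the activators -0.32 to -0.02 and -0.07 to 0.24.

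**Figure D4:**
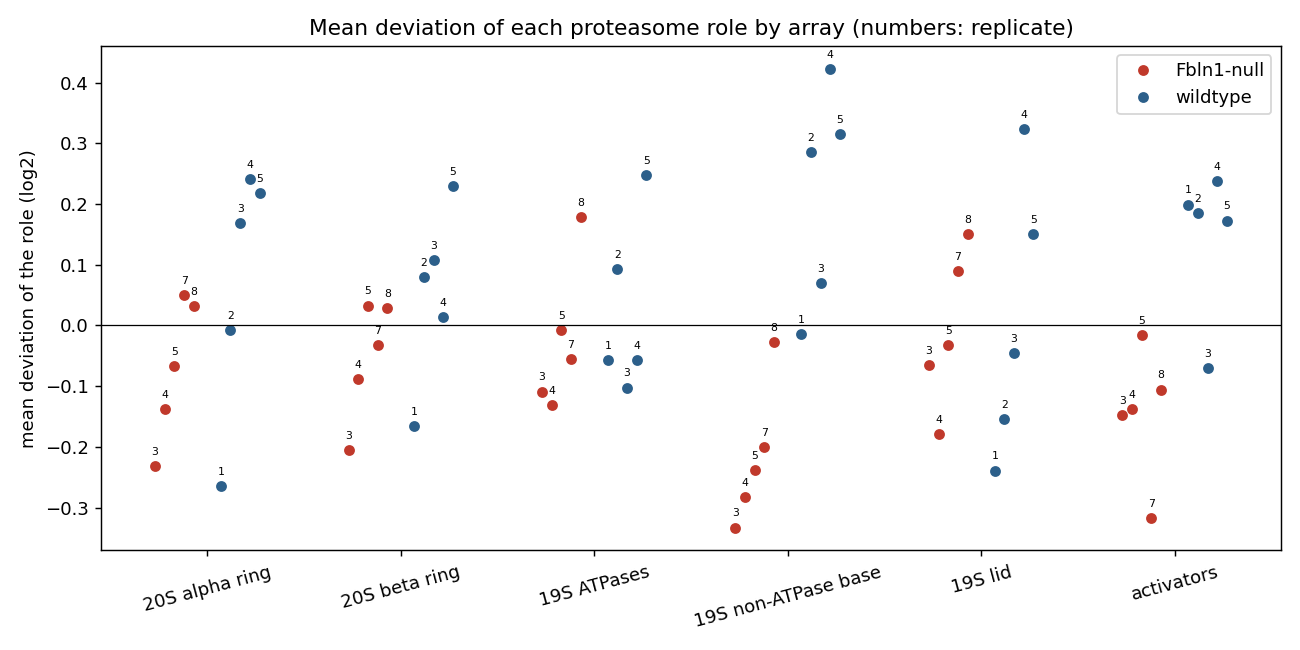
Mean deviation (vertical axis, log2) of each group of proteasome genes by array, Fbln1-null left of wildtype, with the replicate number above each point. The 3 base subunits outside the ATPases run from -0.33 to -0.03 in null and -0.01 to 0.42 in wildtype arrays, and the lid and ATPase groups overlap throughout.

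**Figure D5:**
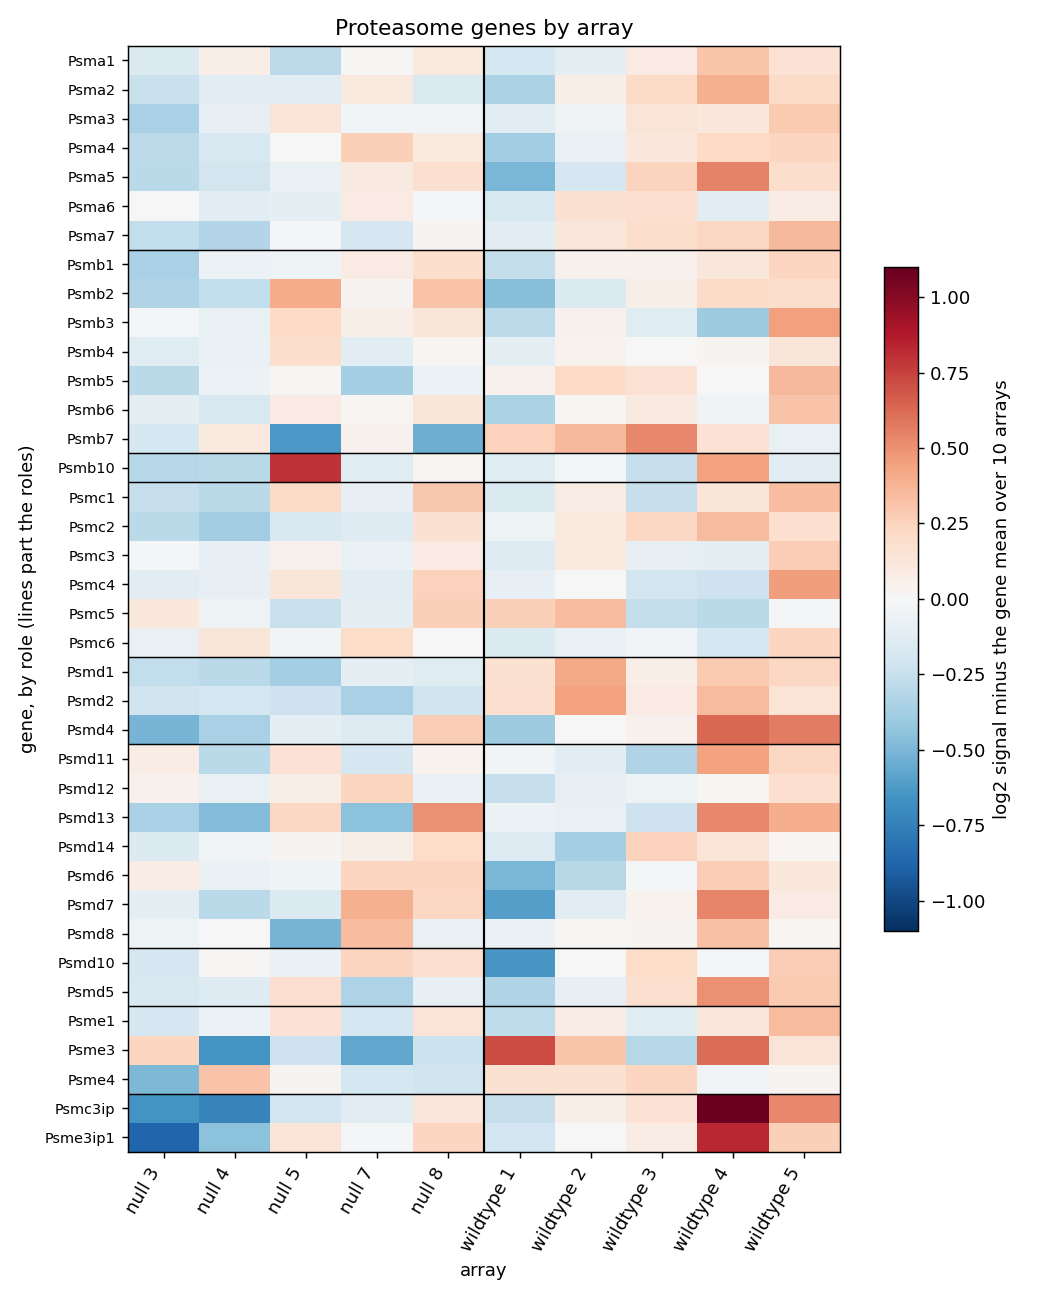
Log2 signal of each proteasome gene over the filter (rows, by role) minus its mean over the 10 arrays (columns, Fbln1-null left of wildtype). Psmd1 and Psmd2 are below their mean in all 5 null arrays, while in most other rows high and low arrays occur in both genotypes.

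The actin and Gapdh control measures of RNA quality differed between genotypes in opposite directions. The actin control probes had a 3 prime minus 5 prime log2 signal of 2.59, 2.45, 2.85, 2.33 and 2.19 in the null arrays, against 2.38, 2.34, 2.27, 2.0 and 2.30 in the wildtype arrays. The mean was higher in null arrays by 0.22, with wildtype replicate 4 lowest. The same measure for Gapdh ran the other way, with means of 1.81 ± 0.17 in null and 1.96 ± 0.24 in wildtype arrays (SD, n = 5 each). The genotypes overlapped in both measures, and only the actin measure was used as a covariate. With the actin measure as a covariate 4 of the 38 genes (10.53%) had an unadjusted p under 0.05, all lower, against a background of 8.93% of all genes in that fit. They were Psmd2 (log2 fold change -0.48), Psmd1 (-0.40), Psme3 (-0.63) and Psmb5 (-0.37). The others of the 8 were no longer under that p, with log2 fold changes of -0.43 for Psmb7, -0.27 for Psma7, -0.20 for Psmc2 and -0.36 for Psmc3ip.

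Genes that assemble, regulate or feed the proteasome also gave 0 calls at a limma adjusted p of 0.05. Of 12 other parts and assembly factors, all over the filter, 9 had lower means in null tissue, against 56.9% of all genes, and 3 higher. At an unadjusted p under 0.05, 2 were lower, against 9.00% of all genes. These were Pomp, the maturation factor of the 20S core (9.90 ± 0.09 in null and 10.29 ± 0.30 in wildtype tissue, SD, n = 5 each, log2 fold change -0.39, limma adjusted p = 0.332), and Psmg1, a chaperone of the alpha ring (-0.38, limma adjusted p = 0.369). Psmg2, the partner of Psmg1 in that chaperone, had 0.24 (SE 0.13). Of 10 shuttle and unfoldase genes 7 had lower means and 3 were lower at an unadjusted p under 0.05, against backgrounds of 56.9% and 9.00%. Ubqln1, a shuttle of ubiquitin-tagged proteins, showed -0.61 on the log2 scale (SE 0.19, limma adjusted p = 0.259). Faf1, a ubiquitin-binding cofactor of the unfoldase Vcp, showed -0.40 (SE 0.15) and Rad23b, a shuttle, -0.62 (SE 0.27). The probe sets of Ubqln1 and Rad23b are of a type that can match transcripts of several genes. Of 8 genes for the transcription of proteasome subunits 4 were over the filter, and 0 had an unadjusted p under 0.05. Nfe2l1 had -0.26 (SE 0.17), Nfe2l2 -0.07 (SE 0.18) and Mafg, a small partner of both, 0.27 (SE 0.18). The ubiquitin genes and their activating enzymes were not analysed here.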

How the data were processed

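The values are on a log2 scale as deposited, and GCRMA is named in the submitters' processing notes. Each array came from 100 ng of total RNA per sample labelled with a 3 prime IVT kit, per the labels' protocols. GCRMA's version is not given in the sources used here. The method pulls dim probe sets to a floor near 2.2, which compresses their fold changes. Controls (64 of 22690 probe sets) were dropped. Names came from the platform annotation. Probe sets with a log2 value over 4 on at least 5 of 10 arrays were kept, 9801 in all, standing for 5912 genes, each read on its brightest. Genotypes were compared with limma 3.58.1 (lmFit, eBayes, two-sided) in R 4.3.3 on all kept probe sets, and genes under the filter were fitted among 22626 for their intervals. The fit was run on simulated data, where recovery was required only for a shift larger than any proteasome difference here. Its power at the differences seen here is not given. The values per array were given for the 12 genes with the smallest p and the catalytic subunits. Psmd3, Fbln1 and second probe sets were added after their values were seen. The proteasome genes, lists and alternatives were chosen with earlier results of these data known. Replicate numbers 3, 4 and 5 occur in both genotypes, and the deviations of same-numbered arrays from their genotype means correlated at -0.23, -0.37 and 0.14 across genes, so the numbers were not taken as pairs. Promoter windows are from RefSeq.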

Additional observations from a re-analysis of the deposited data

Results flagged for a closer look

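The genes over the filter and their mean gave 78 groups of 5 arrays, and in 2 of them 1 array lay far from the other 4, where chance alone flags about 1 in 20 groups. For Psmd2, Fbln1-null replicate 7 read 9.19, while the other null arrays read 9.32 to 9.35. Without it the log2 fold change of Psmd2 was -0.46 (limma adjusted p = 0.253), and over all alternatives for this gene the adjusted p was 0.0712 to 0.372. For Psmd8, wildtype replicate 4 read 9.03, while the other wildtype arrays read 8.64 to 8.73.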

How the results depend on the processing

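Under 22 alternatives to the scaling, filter, floor, variance model, probe set choice, covariate and arrays used, 0 proteasome genes passed an adjusted p of 0.05 in limma and 0 had a higher null mean at an unadjusted p under 0.05. The count of genes lower at an unadjusted p under 0.05 was 8, 5 with centred arrays, 4 with the actin covariate, 2 on second brightest probe sets (15 genes fitted) and 4 to 9 with 1 array left out. The median log2 fold change over the 43 genes was -0.06, and -0.14 to -0.03 with 1 array left out. With centred arrays it was -0.01, where the median over all probe sets over the filter was 0.01. With the replicate number as a block, which uses only the 6 arrays with numbers 3, 4 and 5, the median was -0.22 and the count 8, against 6.90% of all genes, but 4 of these 8 were others. Psmd2 (unadjusted p = 0.0505), Psmb7, Psme3 and Psmb5 were no longer under 0.05, and Psmd4, Psme3ip1, Psma2 and Psma5 were. Replicate 5 of the null arrays correlated best with its own number, and replicates 3 and 4 did not. Of 257 values of the 12 genes with the smallest p, 256 kept their direction and stayed over an adjusted p of 0.05 in limma. The remaining 1, the second brightest Psme4 probe set, had the opposite sign (0.028). This count does not cover the unadjusted threshold, at which calls were gained and lost. The cause of these shifts was not tested. Psmd1 had an unadjusted p under 0.05 under all 21 alternatives on its probe set, and Psmd2 under 20 of 21. Of the others of the 8, Psmb7 had the most, 18 of 21, and Psma7 the fewest, 12 of 21. For genes at the floor in both genotypes, such as Psmb8 and Psmb9, these values cannot show a lower level in null tissue.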
